A study of Mus musculus with 36 samples.

Results

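The arrays described here measured blood RNA of C3H/HeJ mice against blood RNA of mice of 5 other inbred strains. The C3H/HeJ group was the 3 arrays of GLOBINclear RNA carrying that strain label, out of 36 arrays in the series, and it was set against 15 GLOBINclear arrays, 3 each from 129S1/ImJ, A/J, C57Bl/6J, DBA/2J and FVB/NJ. All 18 mice were untreated males aged 8 weeks, 3 per strain, and each array came from a separate mouse. Blood was taken by heart puncture under isoflurane, and GLOBINclear is a kit that pulls alpha and beta globin mRNA out of total RNA with capture oligonucleotides. A second portion of RNA from each of the same mice was hybridised without that step (whole RNA). Those arrays served only to check the direction of a difference, since they came from the same animals. An inbred strain is 1 genotype, so a difference between strains cannot be assigned to any 1 locus here.

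C3H/HeJ is known for a missense change in Tlr4, the receptor for bacterial endotoxin, which leaves the strain poorly responsive to endotoxin. It carries the k haplotype of the H2 complex, the mouse major histocompatibility complex on chromosome 17. The class I genes H2-K1 and H2-D1 of that complex encode the proteins that show peptides from inside the cell to CD8 T cells, and they are among the most variable genes of the mouse. A/J carries k alleles at the K end of the complex and d alleles at the D end, DBA/2J carries d alleles throughout, C57Bl/6J and 129S1/ImJ mice carry b-type haplotypes, and FVB/NJ carries q. The arrays used short probes, so a probe set can fail to bind, or bind better, where a strain's sequence differs from that of the probes.

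Because both class I genes stood among the largest differences, and an interferon-stimulated gene also differed, the reference sequence upstream of 3 of these genes is shown, from RefSeq promoters on build GRCm38.p6, which is of C57BL/6J and not of C3H/HeJ. Capitals mark matches, on either strand, to GGGATTCCC, the core of the class I enhancer A, and to AANNGAAA (TTTCNNTT on the other strand), a core bound by interferon regulatory factors. Each class I sequence held 1 match to each, in that order, and Oas1a held 2 matches to the second that overlap each other. H2-K1 lies on the minus strand, with the bases shown at chr17:34000348-34000547, H2-D1 on the plus strand at chr17:35262894-35263093, and Oas1a on the minus strand at chr5:120907526-120907625. Each run ends 1 base before the annotated start of transcription (the first of 2 listed starts for H2-K1).
H2-K1: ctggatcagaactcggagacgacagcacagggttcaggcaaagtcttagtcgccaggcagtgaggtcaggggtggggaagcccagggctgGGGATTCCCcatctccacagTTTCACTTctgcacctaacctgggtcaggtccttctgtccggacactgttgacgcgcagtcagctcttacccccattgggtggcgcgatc
H2-D1: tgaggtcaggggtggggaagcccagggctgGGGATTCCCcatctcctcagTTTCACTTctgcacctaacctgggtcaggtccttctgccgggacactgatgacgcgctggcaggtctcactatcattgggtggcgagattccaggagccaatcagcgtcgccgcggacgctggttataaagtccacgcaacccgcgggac
Oas1a: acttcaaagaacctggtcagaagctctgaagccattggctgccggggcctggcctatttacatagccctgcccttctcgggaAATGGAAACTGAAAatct

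Around the enhancer A core the 2 class I sequences were identical at 87 of 90 aligned bases. The enhancer A core was present in the 250 bases upstream of 99 of 32851 listed starts (0.301%), and the interferon regulatory factor core in 21.3%, so the latter is common. A match of letters describes the sequence and shows no binding.

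Across the 22518 probe sets tested, 337 differed between C3H/HeJ and the mean of the 5 other strain means (1.5% of those tested). They comprised 169 that were higher (0.751%) and 168 that were lower (0.746%), by limma with Benjamini-Hochberg adjustment below 0.05. Of these, 111 were at least 2-fold higher and 109 at least 2-fold lower. Represented by its brightest tested probe set, a gene was higher in 89 cases (0.781% of 11390 genes) and lower in 94 (0.825%). Among the 337 called probe sets, 55 had all 3 C3H/HeJ arrays above all 15 others, 40 had them below, and the other 242 overlapped. Over all 22518 tested probe sets, called or not, 67 lay above and 84 below. The C3H/HeJ mean was the highest of the 6 strain means for 122 of the 337 and the lowest for 102. The count fell to 202 without C3H/HeJ replicate 1, to 205 without replicate 2 and to 143 without replicate 3, where the group held 2 mice. The number called with arrays below all others was 20 without C3H/HeJ replicate 2, 22 without replicate 3 and 64 without 129S1/ImJ replicate 3. The number lower was 84, 68 and 68 without C3H/HeJ replicates 1, 2 and 3 and 287 without C57Bl/6J replicate 1, and the number higher was 75 without C3H/HeJ replicate 3.

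The genes with the largest separation upward were Hbegf, Redrum and Ppp1r21. Hbegf encodes heparin-binding EGF-like growth factor, a ligand of the EGF receptor. Its values in the 3 C3H/HeJ mice were 7.74, 7.60 and 8.04 (log2), whereas the 15 other arrays lay between 2.16 and 2.22. The difference was 5.60 ± 0.06 (log2, SE), or 48.6-fold (adjusted p = 3.83e-17). The 15 other values lie below 2.84, the median level of all probe sets and the level needed for testing. The fold is thus a ratio to a dim value, and this set was tested only because C3H/HeJ was high. The other Hbegf probe set, too dim for the test, was higher by 3.35 (log2).

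Redrum, a long non-coding RNA of maturing red cells, read 8.55, 8.07 and 8.81 in C3H/HeJ and 3.01 to 4.95 elsewhere. It was higher by 5.0 ± 0.22 (log2, SE; adjusted p = 2.28e-09). Ppp1r21, a regulatory subunit of protein phosphatase 1 found at endosomes, read 7.38, 8.40 and 8.89 against 2.46 to 4.89. It was higher by 4.95 ± 0.42 (adjusted p = 6.69e-06), and all 3 C3H/HeJ mice lay well above the nearest array of any other strain. In whole RNA the same mice gave differences of 3.54 for Hbegf, 2.56 for Redrum and 4.14 for Ppp1r21 (log2), and the arrays did not overlap there either.

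Nme7, of the nucleoside diphosphate kinase family, read 5.98, 6.49 and 6.80 in C3H/HeJ against 2.69 to 3.24 (difference 3.50 ± 0.13, adjusted p = 5.22e-10). Shroom4, an actin-binding protein, read 5.48, 5.41 and 5.59 against 2.41 to 3.08 (difference 2.93 ± 0.10, adjusted p = 1.22e-10). In both, the 5 other strain means were alike, at 2.82 to 3.00 for Nme7 and 2.46 to 2.72 for Shroom4. With each gene's tested probe sets averaged, the Nme7 difference was 1.77, still called. Nme7 was also called in whole RNA (1.65), whereas Shroom4 was not (0.58, adjusted p = 0.388), with 1 of its whole RNA values at 4.01 and the others at 2.54 and 2.79. Rbks, ribokinase, varied more among the C3H/HeJ mice, at 4.18, 4.71 and 5.73 against 2.66 to 3.27 (difference 2.12 ± 0.20, adjusted p = 2.12e-05). The other strains averaged 2.57 for Shroom4 and 2.76 for Rbks. Both lie below the 2.84 needed for testing, so these sets were tested only because C3H/HeJ was high.

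Xpr1, a phosphate exporter, was higher by 2.56 ± 0.19 (log2, SE; adjusted p = 1.84e-06), with 7.58, 6.99 and 7.82 in C3H/HeJ and at most 5.44 elsewhere. With its tested probe sets averaged the Xpr1 difference was 0.99, still called. Atp6v0b, a subunit of the proton pump of lysosomes, was higher by 2.32 ± 0.19, with 9.17, 9.46 and 9.88 against 6.32 to 8.41, and its difference in whole RNA was 3.10. All 3 of its tested probe sets were called higher in GLOBINclear RNA, but in whole RNA the dimmest of them showed no difference (0.0063). Atg4d, a protease of autophagy, read 4.69, 5.57 and 6.62 against 2.87 to 3.66. Its second tested probe set showed no difference (0.00, adjusted p = 0.99). Averaging the tested probe sets of Atg4d gave 1.26. Ankrd33b (2.29, and 1.17 so averaged), Timp3, an inhibitor of matrix metalloproteinases (2.05, and 1.2 so averaged), and Ctage5, which helps large cargo leave the endoplasmic reticulum (1.92), completed the 12 named genes with arrays above all others.

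**Figure D1:**
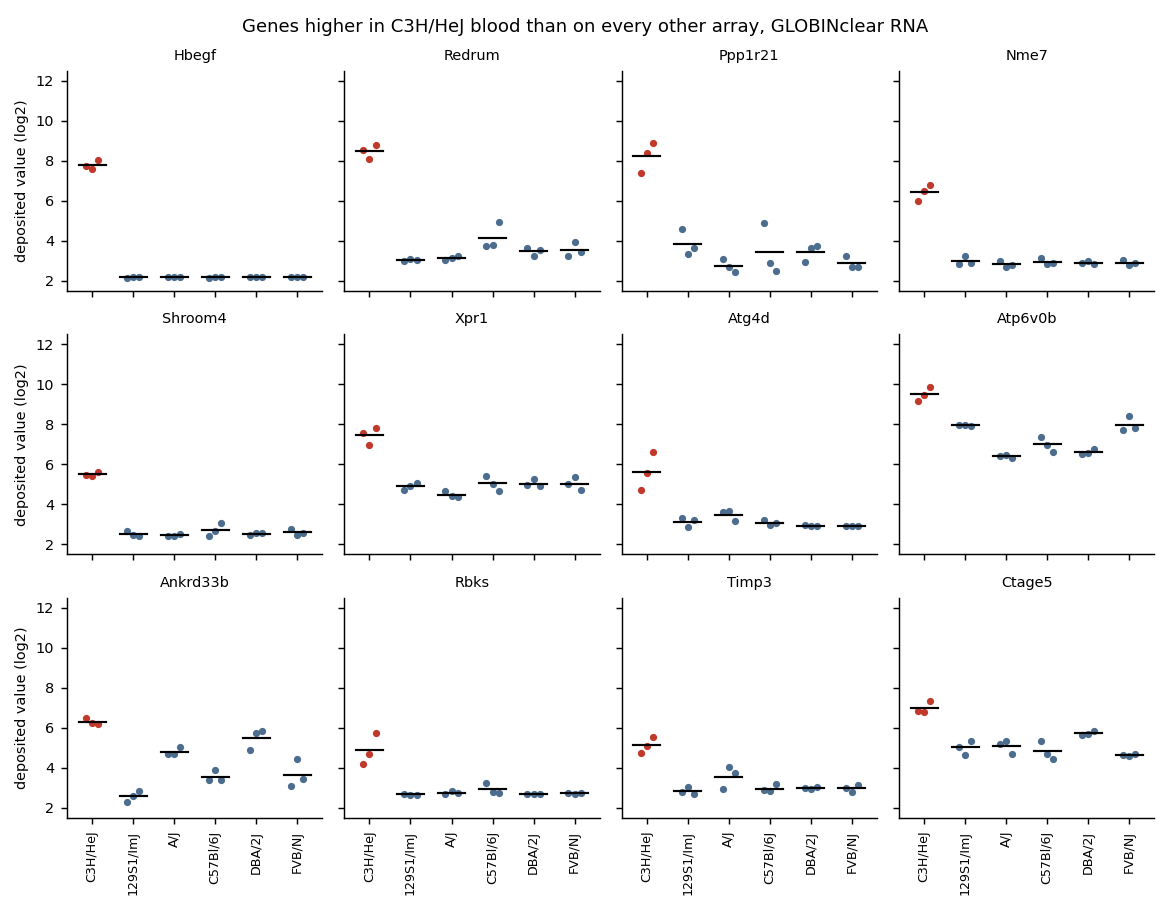
Deposited value (log2) of the 12 named genes whose 3 C3H/HeJ arrays lay above all 15 others, by strain; each point is 1 mouse (GLOBINclear RNA) and each bar the mean of 3. For Hbegf the C3H/HeJ points sit between 7.60 and 8.04 and all others between 2.16 and 2.22, while for Ankrd33b the other strains themselves range from 2.32 to 5.85.

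Among genes whose arrays lay below all others, H2-K1 had the largest difference, followed by Gucy1b1 and H2-D1. The class I pair is given first. The brightest probe set of H2-K1 read 7.20, 6.28 and 7.22 in C3H/HeJ and 8.96 to 11.56 elsewhere (difference -3.70 ± 0.27, adjusted p = 1.58e-06). The brightest of H2-D1 read 7.58, 7.79 and 7.66 against 8.93 to 11.73 (difference -3.08 ± 0.25, adjusted p = 4.01e-06). With all tested probe sets averaged the differences were -1.84 for H2-K1 and -1.57 for H2-D1. The brightest set of each gene differed from all 5 strains taken singly.

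The probe sets of these genes did not move together, however. H2-D1 was the only called gene with tested probe sets called in both directions. One set read 9.83, 9.41 and 9.28 in C3H/HeJ and 4.36 to 5.06 on all 15 other arrays, so it was higher by 4.88 ± 0.17 (adjusted p = 1.22e-10). Another 3 sets were bright in A/J and DBA/2J alone, the strains with d alleles at that end of the complex. One of them lay between 9.56 and 10.55 in those strains, between 3.03 and 3.43 in 129S1/ImJ, C57Bl/6J and FVB/NJ, and at 3.22 to 3.25 in C3H/HeJ. They counted as lower in C3H/HeJ only because 2 of the 5 strains were high.

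The second called set of H2-K1 was low in C3H/HeJ (5.85 to 6.31) and in A/J (4.82 to 6.35), the strains with k alleles at the K end, and lay between 8.39 and 11.27 in the others. Its remaining 2 tested sets were not called (-0.45 and -0.21). With sets of 1 gene at opposite extremes in the same mice, the level of class I mRNA and the fit of each strain's allele to the probes cannot be told apart here. The same directions were seen in whole RNA, at -4.38 for H2-K1 and -2.73 and 3.46 for the 2 H2-D1 sets read above.

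**Figure D2:**
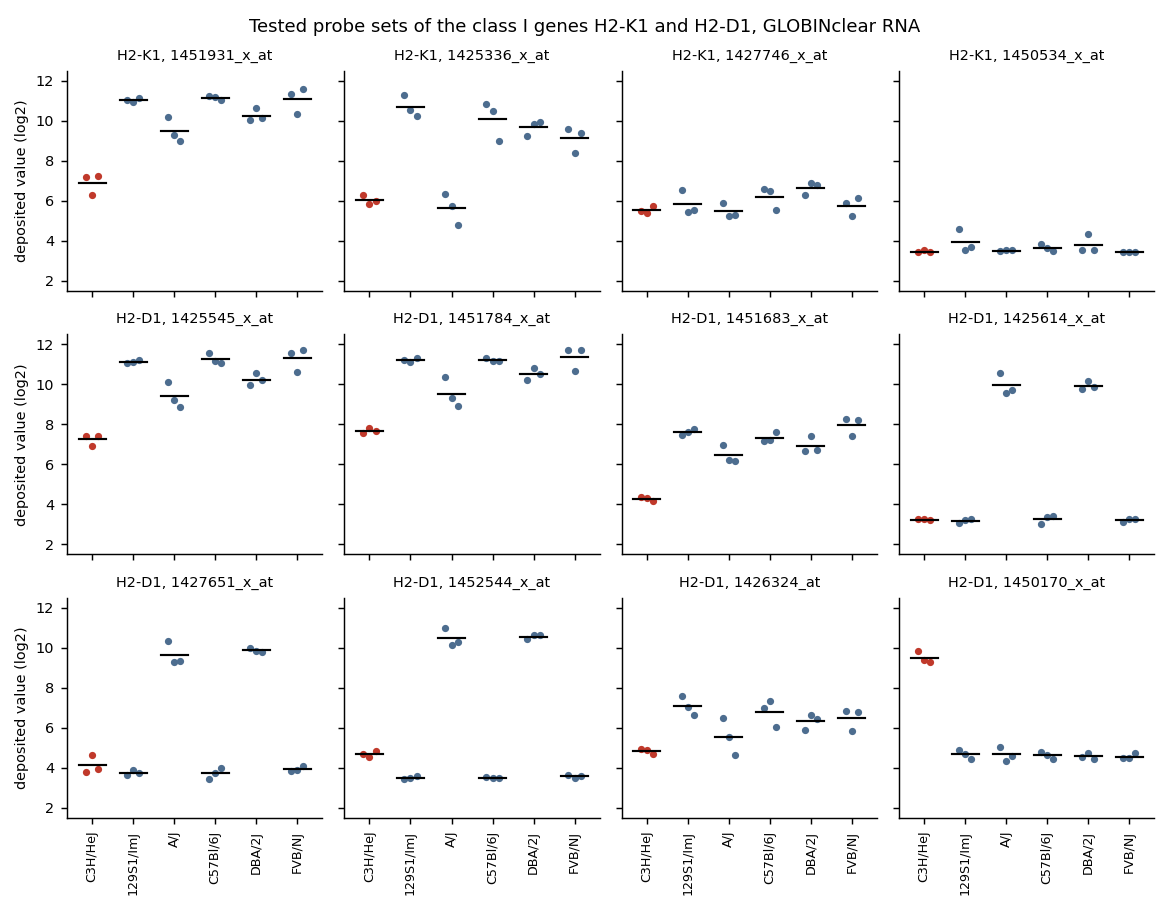
Deposited value (log2) of the 12 tested probe sets of H2-K1 and H2-D1 by strain; points are mice (GLOBINclear RNA), bars are means of 3. On 1 H2-D1 set C3H/HeJ alone is high (9.28 to 9.83), on 3 others A/J and DBA/2J alone are high, and on 1 H2-K1 set C3H/HeJ and A/J are both low (4.82 to 6.35).

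Other probe sets of the complex are each annotated to more than 1 class I gene and are not named further. One annotated to H2-Q genes read 3.32, 4.14 and 3.68 in C3H/HeJ against 4.35 to 8.56 (difference -2.67, adjusted p = 0.012), and a second 3.45, 3.24 and 3.08 against 3.91 to 8.32 (-2.65, adjusted p = 0.0085). One annotated to H2-T genes went the other way, at 8.05, 7.81 and 8.65 against 4.14 to 6.87 (2.61, adjusted p = 0.00017). A second H2-T set did too, at 9.83, 9.82 and 9.84 against 7.20 to 9.71 (1.25, adjusted p = 3.18e-05). Both H2-T sets were also called higher in whole RNA (2.74 and 1.40). Neither H2-Q set was called there (-0.80, adjusted p = 0.81, and -1.12, adjusted p = 0.67). H2-T24 lay at 8.01 on average against 6.94 and was not called (adjusted p = 0.16).

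Of 15 tested genes of class I and peptide loading, each read through its brightest single-gene probe set, none was higher. H2-K1 and H2-D1 were lower. Counts for this and later lists stand beside 183 called of all 11390 genes, a share at which short lists hold few or no calls. Of 10 tested class II genes, whose products present peptides to CD4 T cells, none was called. H2-Ab1 had the lowest of their differences at -1.03 (adjusted p = 0.567). H2-Ea encodes the alpha chain of the E molecule, which mice of the b and q haplotypes do not express. It averaged 9.20 in DBA/2J, 4.75 in C3H/HeJ, 3.87 in A/J and 2.71 to 3.48 in the other 3 strains. C3H/HeJ thus lay between DBA/2J and the strains that lack the chain, and its difference from the 5-strain mean was 0.35 (adjusted p = 0.768). Against strains taken singly, it was called higher than 129S1/ImJ (2.05), C57Bl/6J (2.00) and FVB/NJ (1.27) and lower than DBA/2J (-4.45). The fit of the H2-Ea probes to each strain's allele was not tested.

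Outside the complex, Gucy1b1 was lower by the most among genes whose arrays did not overlap. It encodes a subunit of soluble guanylate cyclase, the nitric oxide receptor of platelets and smooth muscle. Its values were 4.55, 4.91 and 5.11 in C3H/HeJ against 6.76 to 9.09 (difference -3.11 ± 0.36, adjusted p = 0.000141), and its second probe set was called too. In whole RNA it was lower by a similar amount (-2.96). Pde7b, a phosphodiesterase that breaks down cyclic AMP, read 2.86, 2.81 and 2.70 against 3.81 to 6.76 (difference -2.76, adjusted p = 0.00167). St3gal1, a sialyltransferase of surface glycoproteins, read 3.81, 3.49 and 3.66 against 4.32 to 5.99 (difference -1.53, adjusted p = 0.000778). Spop, which brings substrates to a cullin-3 ubiquitin ligase, was the brightest of the group, at 9.50, 9.27 and 9.48 against 10.17 to 11.22 (difference -1.20, adjusted p = 2.41e-05). St3gal1 and Spop differed from each of the 5 strains singly.

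Bcl2l11, which encodes the pro-apoptotic protein Bim, read 2.60, 2.57 and 2.61 in C3H/HeJ against 2.90 to 7.46 (difference -1.87, adjusted p = 0.0038). A/J, at a mean of 7.13, made much of that difference, and the other 2 tested probe sets gave 0.15 and -0.16. Tmem71 (-1.88), Glipr2 (-1.71), Lhfp (-1.52) and Mettl15, a mitochondrial methyltransferase of ribosomal RNA (-1.33), also had all 3 arrays below the others. The calls of Glipr2 and Lhfp were lost whichever C3H/HeJ mouse was left out, and that of Mettl15 in 9 of 18 fits that left out 1 array. Mettl15 also lost its call with no filter, with a replicate block (adjusted p = 0.0705), with both preparations averaged (-0.73) and with its probe sets averaged (-0.70). For Bcl2l11 the average of its probe sets was -0.63, not called.

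**Figure D3:**
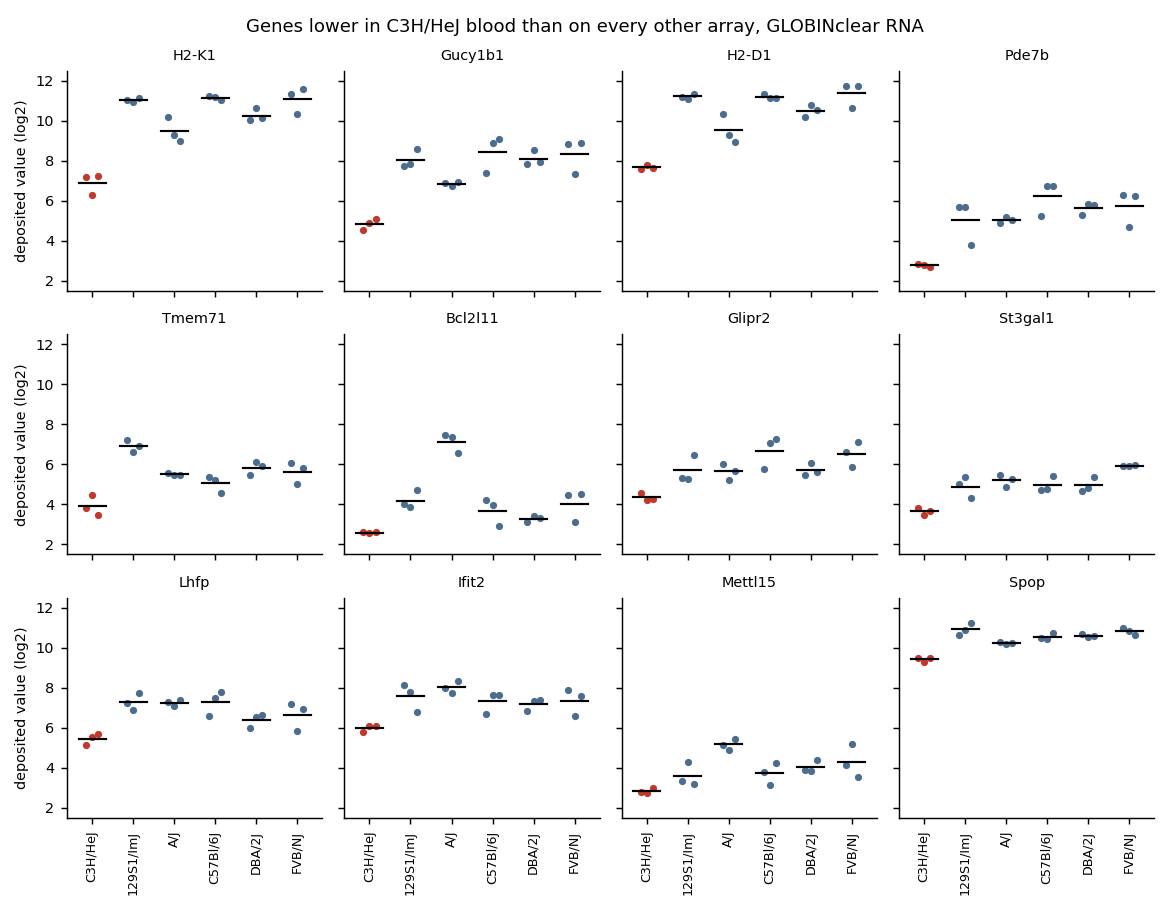
Deposited value (log2) of the 12 named genes whose 3 C3H/HeJ arrays lay below all 15 others, by strain; points are mice (GLOBINclear RNA), bars are means of 3. Spop in C3H/HeJ sits between 9.27 and 9.50 and elsewhere between 10.17 and 11.22, while for Bcl2l11 A/J stands far above the rest.

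Among called genes with overlapping arrays, the difference came from some of the strains. Gdpd3, a lysophospholipase D, read 2.12, 2.22 and 2.13 in C3H/HeJ, the level of A/J, C57Bl/6J and DBA/2J, while 129S1/ImJ averaged 13.40 and FVB/NJ 12.87. Capn3, a calcium-dependent protease, was low in C3H/HeJ (3.40, 3.94 and 3.14), in 129S1/ImJ (mean 3.25) and in FVB/NJ (mean 4.40). It averaged 8.51 in C57Bl/6J (difference -2.64, adjusted p = 5.96e-05). Josd2, a deubiquitinating enzyme, read 10.06, 9.93 and 10.16 in C3H/HeJ, near 129S1/ImJ (9.56) and FVB/NJ (9.62) and far above C57Bl/6J (3.96). Its difference was 3.04 (adjusted p = 0.00053). Rubcn, a brake on autophagy, was shared with DBA/2J alone: 5.78, 5.24 and 6.10 in C3H/HeJ, a mean of 6.17 in DBA/2J and means of 2.87 to 3.14 in the other strains.

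Angpt1, a ligand of the Tie2 receptor that platelets carry, read 4.27, 4.44 and 4.98 in C3H/HeJ, with 129S1/ImJ next (mean 5.13) and FVB/NJ highest (8.47). Its difference was -2.69 (adjusted p = 0.00017), and -2.63 in whole RNA. Gm10419, a predicted gene, was higher (2.30), at a level that FVB/NJ shared.

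The 5 pairwise contrasts share the C3H/HeJ arrays. C3H/HeJ differed at 264 probe sets from A/J (1.17%), 362 from DBA/2J (1.61%), 534 from 129S1/ImJ (2.37%), 567 from FVB/NJ (2.52%) and 924 from C57Bl/6J (4.1%). Of the 337 probe sets called against the mean, 37 differed from all 5 strains singly, 49 from 4, 102 from 3, 105 from 2, 42 from 1 and 2 from none. Leaving out 1 array moved some counts by more than 1.5 times. The count against A/J was 175 without A/J replicate 3 and 169 without C3H/HeJ replicate 3. Against DBA/2J it was 234 without DBA/2J replicate 2 and 229 without C3H/HeJ replicate 3. Against 129S1/ImJ it was 341 and 280 without C3H/HeJ replicates 2 and 3. Against FVB/NJ it was 360, 344 and 370 without C3H/HeJ replicates 1, 2 and 3 and 375 without FVB/NJ replicate 3. Against C57Bl/6J it was 599 and 544 without C3H/HeJ replicates 2 and 3 and 582 without C57Bl/6J replicate 2.

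Interferon-stimulated genes gave calls in both directions. Of 34 tested, 3 were higher (Irf7, Oas1a and Ifitm3) and 1 was lower (Ifit2), with a median difference of 0.15 against -0.039 over all genes. That median was 0.52 under the stricter filter and 0.086 with both preparations averaged. Irf7, the transcription factor that amplifies type I interferon production, read 7.79, 8.34 and 8.96 in C3H/HeJ. Its difference was 1.91 ± 0.34 (adjusted p = 0.0085), and 2.04 in whole RNA. C57Bl/6J, at a mean of 9.19, lay above the C3H/HeJ mean of 8.36, while FVB/NJ averaged 4.19 and 129S1/ImJ 4.73, so the strains lay widely apart.

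Oas1a, a sensor of double-stranded RNA whose promoter is shown above, read 4.74, 4.15 and 4.46 against 3.06 to 4.33 (difference 0.90, adjusted p = 0.012). In whole RNA it did not differ (0.04, adjusted p = 1). Ifitm3, which blocks virus entry, was higher by 0.78 (adjusted p = 0.0479). Ifit2, which binds viral RNA, read 5.79, 6.08 and 6.08 and lay below all 15 others, at 6.59 to 8.32 (difference -1.50, adjusted p = 0.0182). The call of Irf7 was lost without C3H/HeJ replicate 2 or 3, that of Oas1a without replicate 1 or 3 and that of Ifit2 without any 1 of the 3.

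Of 12 tested Ifi200 and Trim5-like genes, Mndal, an interferon-inducible nuclear protein, was the only one called. It read 7.15, 6.58 and 7.01 in C3H/HeJ, like 129S1/ImJ and C57Bl/6J (means of 7.50 and 7.30), with means of 3.16 to 3.20 in A/J, DBA/2J and FVB/NJ (difference 2.05, adjusted p = 0.00748). Of 6 Slfn genes, Slfn4 was higher (2.01, adjusted p = 0.0103), with 6.02, 6.50 and 5.80, close to the DBA/2J mean of 5.91. The call of Mndal was lost without C3H/HeJ replicate 1 or 3 and that of Slfn4 without replicate 1 or 2. No interferon-inducible GTPase among 10 tested was called, where 183 of all 11390 genes were. Ifi47 had the largest statistic of the 10 (-0.45, adjusted p = 0.719).

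None of 18 tested genes of endotoxin sensing was called. Over all genes 183 of 11390 were called, so none among 18 says little. Of the 18, 11 had positive differences, against 3953 of all 11390 genes. The smallest adjusted p was 0.273, for Tollip, an inhibitor of Toll-like receptor signalling. Tlr4 itself read 3.61, 2.92 and 2.88 in C3H/HeJ against 2.77 to 3.20 (difference 0.20 ± 0.11, adjusted p = 0.761). That level is close to the 2.84 a probe set had to exceed to be tested, and array levels do not measure a coding change. Cd14, the endotoxin co-receptor, had the highest difference of the list (1.21, adjusted p = 0.87). Tlr1 led the other Toll-like receptors (-0.72, adjusted p = 0.42). Of 12 cytokine and chemokine genes, Tgfb1, a suppressive cytokine abundant in platelets, was the only one called. Its difference was -1.15 (adjusted p = 0.0424), a call kept in 6 of 18 fits that left out 1 array and lost under quantile normalization. A/J lay as low as C3H/HeJ for Tgfb1 (means of 7.26 and 7.34). Il6ra, at 0.64, was not called (adjusted p = 0.371).

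Blood is a mixture, and in such bulk samples fewer cells of a type and less RNA per cell cannot be told apart. Red cell and platelet transcripts were present as the label requires: Prdx2, a red cell peroxidase, read 13.67 to 13.85 in C3H/HeJ, and Pf4, platelet factor 4, read 12.55 to 12.62. Over all 11390 genes 3953 had positive differences. Of 25 tested platelet genes, none was higher, 2 were lower and 6 had positive differences, with a median of -0.22 against -0.039 over all genes. That median ranged from -0.31 with array weights to -0.16 without C3H/HeJ replicate 3, and was -0.094 in whole RNA. Pf4 lay below all 15 other arrays, with a difference of -0.36 (adjusted p = 0.0122), a call lost with both preparations averaged (adjusted p = 0.179). Plek, a platelet signalling protein, had a difference of -0.54 (adjusted p = 0.0304). The Plek level of C3H/HeJ (mean 10.90) was shared by 129S1/ImJ (mean 10.78). The Plek call was lost under quantile normalization, median centring, a replicate block, both preparations averaged and its probe sets averaged. Both calls were lost whichever C3H/HeJ mouse was left out. The mean level of the platelet list was 9.39 to 9.52 in C3H/HeJ, inside the 8.98 to 10.20 of the others. Its part in the lower Gucy1b1, Angpt1 and Tgfb1 was not tested.

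Of 27 tested monocyte and macrophage genes 21 had positive differences, with a median of 0.35. That median was 0.013 without C3H/HeJ replicate 1 and 0.64 without replicate 2. Treml4, a receptor of the patrolling subset, was called higher (0.70, adjusted p = 0.00206), at a level that 129S1/ImJ shared (means of 4.12 and 4.08). The mean level of that list was 6.31 in C3H/HeJ replicate 1, above all 15 others (4.43 to 5.98), but 5.07 and 5.11 in replicates 2 and 3. That same mouse had the highest B cell level of the 3 (5.96, against 4.66 and 5.26) and supplied the highest Dusp6 value. Dusp6, a phosphatase that shuts off ERK signalling, read 6.93, 5.83 and 5.44 against 3.83 to 5.71 (difference 1.31, adjusted p = 0.0479). Its call was kept in 4 of 18 fits that left out 1 array. The part of monocytes in it was not tested.

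Among 23 T cell genes, Lat, an adaptor of the T cell receptor that platelets also use, was the only one called (-1.19, adjusted p = 0.0193). That call was lost whichever C3H/HeJ mouse was left out, and A/J lay close to C3H/HeJ (means of 6.69 and 6.43). Of 20 tested NK genes 2 had positive differences, against 3953 of all 11390 genes. Over all 11390 genes 183 were called. No B cell (18 tested), NK (20), neutrophil (18) or eosinophil, basophil and mast cell gene (10) was called. The largest statistics were those of Ralgps2 for B cells (-0.96, adjusted p = 0.113), Eomes for NK cells (0.50, adjusted p = 0.247) and Slc2a3 for neutrophils (-0.33, adjusted p = 0.273).

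**Figure D4:**
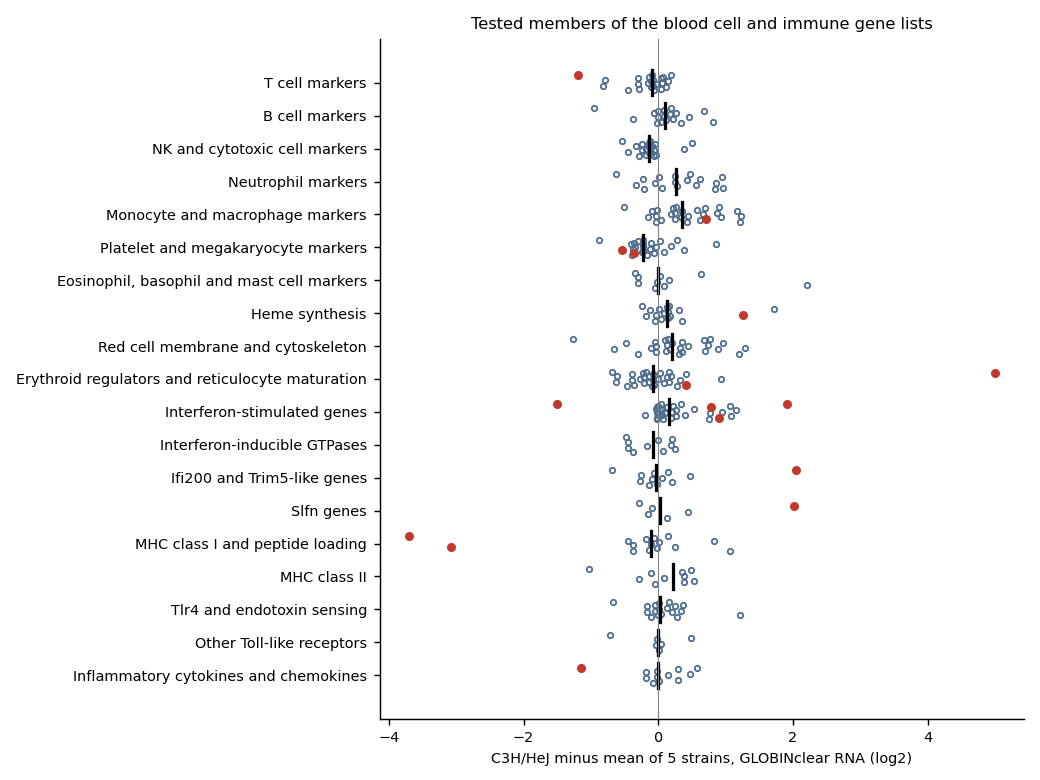
Difference of C3H/HeJ from the mean of 5 strains (log2, GLOBINclear RNA) for each tested gene of 19 lists; filled points were called at adjusted p below 0.05, open points were not, and the black bar is the list's median. Most points lie near 0, H2-K1 and H2-D1 stand at the left of the class I row, and Redrum, at 5.0, stands alone at the right of the erythroid row.

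Red cell genes gave few calls besides Redrum. Of 31 erythroid regulators tested, Redrum and Prdx2 were higher. Prdx2 read 13.69, 13.85 and 13.67 against 12.88 to 13.66 (difference 0.41, adjusted p = 0.0313), and 0.68 in whole RNA. The call was lost with no filter (adjusted p = 0.0557) and with its probe sets averaged (0.27, adjusted p = 0.694). Of 17 genes of heme synthesis, Alad was higher (1.26, adjusted p = 0.0352). It encodes the enzyme that joins aminolevulinate units and is known for copy number differences among strains. It read 7.76, 7.69 and 8.49 in C3H/HeJ, close to A/J (mean 8.15), with C57Bl/6J lowest (4.78). None of 27 red cell membrane genes was called through its brightest probe set. Cd59a, an inhibitor of complement, came nearest at -1.26 (adjusted p = 0.0504), and its other probe set was called (-1.82). The calls of Prdx2 and Alad were kept in 9 and 7 of 18 fits that left out 1 array.

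A probe set annotated to more than 1 alpha globin gene was higher in C3H/HeJ (1.62, adjusted p = 1.69e-07), and FVB/NJ shared it. It read 14.55, 14.79 and 14.48 in C3H/HeJ, 14.36 to 14.59 in FVB/NJ and at most 12.84 on the 12 arrays of the other 4 strains. The mean of all adult globin sets was 9.15 in C3H/HeJ against 8.88 (exact two-sided permutation p = 0.0466, 0.466 after adjustment over 20 array measures). None of those 20 measures, marker levels included, differed after adjustment, where the smallest adjusted p was 0.196.

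Of 34 glutathione and redox genes, Gstm5, a glutathione transferase, and Prdx2 were higher and Sod1, the cytosolic superoxide dismutase, was lower. Gstm5 read 11.30, 11.48 and 11.52 against 9.59 to 11.22 (difference 0.76, adjusted p = 0.00169). Sod1 read 8.74, 8.60 and 8.81 against 8.23 to 10.41 (difference -0.79, adjusted p = 0.0233), a call lost whichever C3H/HeJ mouse was left out. Of 54 genes of oxidative phosphorylation, Cox6c, a subunit of cytochrome oxidase, was the only one called (0.52, adjusted p = 0.043), a call kept in 6 of 18 fits that left out 1 array. Of those 54 genes, 39 had positive differences, against 3953 of all 11390 genes. Of 38 ribosomal protein genes, 35 proteasome genes and 32 proliferation genes none was called. At the share over all genes, 183 of 11390, few or none would be. The highest statistics there were those of Rpl37 (0.42, adjusted p = 0.591), Psmd4 (-0.48, adjusted p = 0.434) and Nusap1 (-1.15, adjusted p = 0.0987).

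Within the EGF family, Hbegf was the only call among 8 tested genes. Hbegf was tested only because C3H/HeJ was high, so its place among the tested genes rests on the same difference. Among 38 immediate early and stress genes, Hbegf and Dusp6 were higher and none was lower. The called genes did not lie next to each other more often than other genes did. A called gene had another called gene within 5 tested genes on either side in 26 of 181 cases (14.4%), and an uncalled gene had one in 14.8%. Of 152 other tested probe sets of called genes, 126 had the sign of the brightest set, 39 were called with it, and 1, of H2-D1, was called against it.

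Whole RNA gave the same sign for 317 of the 337 probe sets, and 105 were called there too. On its own it called 135 (0.6%), and 72 without C3H/HeJ replicate 2 or without replicate 3. The 20 with the other sign differed by at most 0.0918 (log2) in whole RNA, at a median level of 2.99. Since both preparations came from the same mice, this compares preparations and adds no animals. Of the named genes above all others, Ankrd33b, Atg4d, Shroom4, Timp3, Rbks and Ctage5 were not called in whole RNA, with differences of 0.15 to 1.25 there. Of those below all others, Bcl2l11, Pde7b, St3gal1, Tmem71, Mettl15 and Ifit2 were not called there. With both preparations averaged, differences shrank by more than 1.5 times for Ankrd33b (1.36), Atg4d (1.51), Timp3 (1.10), Rbks (1.26), Shroom4 (1.75), Oas1a (0.47), Treml4 (0.38), Pde7b (-1.83) and Bcl2l11 (-1.05).

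**Figure D5:**
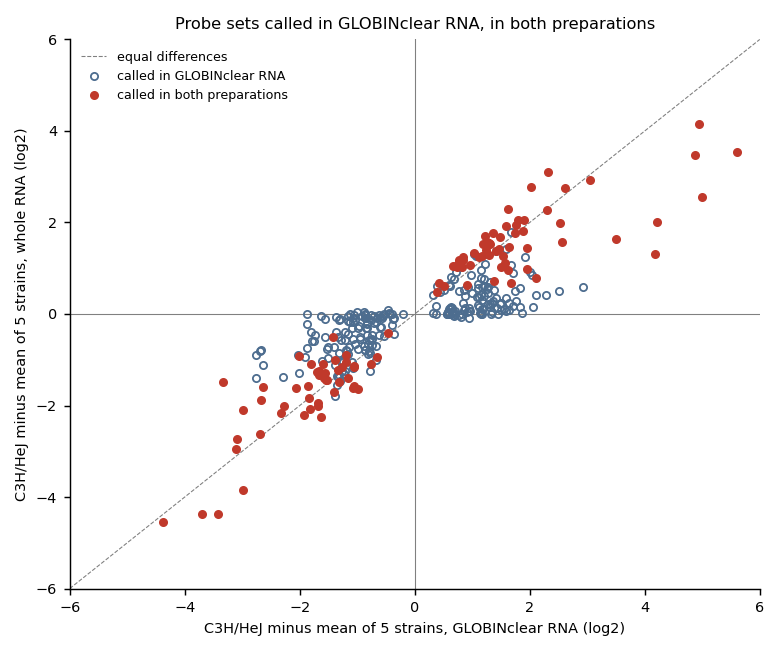
Difference of C3H/HeJ from the mean of 5 strains in GLOBINclear RNA (x axis, log2) and whole RNA (y axis, log2) for the 337 probe sets called in GLOBINclear RNA; filled points were called in both, and the dashed line marks equal differences. The signs match for 317 points, and the 20 others lie within 0.0918 of 0 on the y axis.

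On quality, the C3H/HeJ arrays correlated with each other at 0.972 to 0.988 over the tested probe sets. C57Bl/6J had the lowest correlation within a strain (0.914). The number of probe sets at log2 5 or above was 3802 to 4629 in C3H/HeJ and 3871 to 5278 elsewhere, and control probe sets for RNA integrity, labelling and hybridisation overlapped between C3H/HeJ and the rest. Array values carry no read depth, and the precision is set by 3 mice per strain.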

How the data were processed

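Peripheral blood RNA of 18 male mice was hybridised to Affymetrix arrays, 36 in all. Values are log2 intensities as deposited by the authors. The submitters' processing notes name GCRMA, MAS5 and affy without versions, and no label says which of them made the values. The log2 scale was read from the values, which run from 0.837 to 15.6. Folds against dim levels are uncertain. Probe sets were named from the platform annotation: 34945 had 1 gene, 932 several and 9160 none, and a probe set with several was named for none.

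From the deposited log2 values limma 3.58.1 (R 4.3.3) fitted 1 mean per strain over the 18 GLOBINclear arrays, with C3H/HeJ minus the mean of the 5 other strain means as the contrast, eBayes with an intensity trend, and Benjamini-Hochberg adjustment at 0.05. Tested were 22518 probe sets with a mean over the 18 arrays above 2.84 (log2), the median of all. A gene is its brightest tested probe set. A probe set high in C3H/HeJ alone can pass that filter only through C3H/HeJ. Hbegf, Shroom4 and Rbks did so, with means over the 5 other strains of 2.19, 2.57 and 2.76. Whole RNA was fitted in the same way. Array measures had exact permutation tests over 816 arrangements of the 18 arrays, two-sided, for which the smallest possible p is 0.00123. The fit was tested on simulated data. Upstream sequence came from RefSeq's promoter table (GRCm38.p6). The permutation tests treated the 18 arrays as interchangeable, so their p-values also take in the spread between strains. Each array was 1 mouse, so limma p-values measure the spread between mice within strains, pooled over the 6 strains. For genes dim in the other strains, that pooled spread is mostly theirs and understates the spread among C3H/HeJ mice. For Hbegf the SD was 0.22 in C3H/HeJ and 0.011 to 0.026 in the other strains. For Rbks and Atg4d the C3H/HeJ SD was 0.79 and 0.96, while the SE of the difference was 0.20 and 0.25. Alternatives tried were other filters, quantile normalization, median centring, no intensity trend, array weights, a replicate block, the average of both preparations, the mean of a gene's probe sets and leaving out each array.

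Named genes were the 12 highest and 12 lowest called with arrays outside all others, the 6 largest called with overlapping arrays, up to 3 called members of each of 30 lists (or its top member), and Tlr4, H2-Ea, Hbegf, Ppp1r21, Redrum and Rbks. The group and the lists were chosen with earlier results of these data known. Replicate numbers did not pair mice: deviations of same-numbered mice from their strain means correlated at a median of 0.0491, with a lowest value of -0.39. Figures were drawn with matplotlib 3.10.9.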

Additional observations from a re-analysis of the deposited data

How the results depend on the processing

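Counts of called probe sets stayed within 1.5 times of the reported 337 under no filter, a stricter filter, quantile normalization, median centring, no intensity trend, a replicate block and the average of both preparations (260 to 406). The share higher was 60% under quantile normalization and 42.1% under the stricter filter, against 50.1%. The fit with the replicate number as a block called 326, of which 296 were among the 337; the numbers do not pair mice. Array weights, whose estimation did not converge, called 2192 (935 higher and 1257 lower, 73 below all others), and 1340 against 129S1/ImJ, 2229 against A/J, 1662 against C57Bl/6J, 2032 against DBA/2J and 2863 against FVB/NJ. Leaving out 1 array gave 143 to 500 calls, 75 to 216 higher, 68 to 287 lower and 20 to 64 below all others. The same gave 280 to 741 against 129S1/ImJ, 169 to 346 against A/J, 544 to 1160 against C57Bl/6J, 229 to 444 against DBA/2J and 344 to 774 against FVB/NJ. In whole RNA it gave 72 to 159, an alternative chosen after seeing the data. Of 45 named genes that were called, 28 kept the call in each of the 18 fits without 1 array, and 26 of those under every other alternative run too. H2-Ea reversed to -0.0278 (log2) with both preparations averaged, and Tlr4, called in no setting, ranged from -0.0330 without C3H/HeJ replicate 1 to 0.33 without replicate 3. Bcl2l11 lost its call with a gene's probe sets averaged, and Treml4 with both preparations averaged. The B cell median ranged from -0.26 without C3H/HeJ replicate 1 to 0.51 without replicate 2, and the neutrophil median from 0.14 without C3H/HeJ replicate 2 to 0.59 under the stricter filter. With 3 mice per strain, small differences in dim genes could not be resolved.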

Other observations

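Some called genes outside the lists were read after their values were seen. Sp100, a nuclear body protein induced by interferon, was higher by 1.75 ± 0.28 (log2, SE; limma adjusted p = 0.003015), although its second probe set was not called (0.24). Ifnar2, a chain of the type I interferon receptor, was higher on 1 of 3 tested sets (1.11, adjusted p = 0.00501). Xaf1, an interferon-induced pro-apoptotic protein, was lower on 1 set (-1.80, adjusted p = 0.0068) and showed -0.02 on the other.

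Srp14, a subunit of the signal recognition particle, was lower on all 4 tested sets, from -1.54 to -1.06. Kcmf1, a ubiquitin ligase, was higher on all 3, from 0.65 to 1.70, with the C3H/HeJ arrays above all others on each. Morrbid, a long non-coding RNA known to repress its neighbour Bcl2l11, was higher on 1 set (1.48 ± 0.13) and not called on the other (0.32), in the mice in which 1 set of Bcl2l11 was lower. Any link between the pair was not tested.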
